A study of Mus musculus with 10 samples.

Results

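The promoters of 8 genes that encode transcription factors of naive pluripotency, *Nanog*, *Esrrb*, *Tfcp2l1*, *Zfp42*, *Prdm14*, *Nr5a2*, *Sall4* and *Nr0b1*, were followed in the H3K4me3 peaks of nEnd. They were chosen by name among 21755 protein-coding genes on chromosomes 1 to 19 and X, with earlier results of these data known. Their counts beside the shares over all genes are therefore a description. A gene was counted as marked in a library where a peak overlapped the region from 1000 bp upstream to 100 bp downstream of any of its annotated transcription start sites (GENCODE M21, GRCm38). H3K4me3, a histone mark found around the start sites of active genes, was mapped by CUT&Tag. In this assay a tethered antibody brings the transposase Tn5 to the mark and the fragments it cuts are sequenced. The cells were mouse nEnd, a naive extra-embryonic endoderm culture, all from the single OCT4-mCherry reporter line and without treatment. FACS by reporter fluorescence and by a PDGFRA antibody coupled to APC separated them into Oct4+ nEnd (4 libraries), double-positive DP nEnd (3 libraries) and Pdgfra+ nEnd (3 libraries). The comparisons ask how the promoters of these factors are marked in each sorted population. The sorted pools are bulk samples, so fewer cells that carry a peak and less H3K4me3 per cell cannot be told apart.

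In the mouse blastocyst the inner cell mass gives rise to the epiblast, which is pluripotent, and the primitive endoderm, which forms extra-embryonic endoderm. The naive state of the epiblast and of embryonic stem cells is held by a network of transcription factors around OCT4, SOX2 and NANOG that bind their own and each other's genes. ESRRB, NR5A2 and NR0B1 are nuclear receptor family members of this network, TFCP2L1 acts downstream of LIF and STAT3 signalling, ZFP42 (REX1) is a zinc finger protein widely used as a naive marker, PRDM14 restrains FGF signalling and DNA methylation, and SALL4 is a zinc finger protein that is also used in extra-embryonic endoderm.

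The 250 bases before the start site are shown for 4 of the genes, *Nanog* and *Zfp42* because they hold the core of the octamer, the element read by OCT4, and *Esrrb* and *Nr5a2* because the marked start was not the one farthest upstream. The sequences were read from the GRCm38.p6 reference genome of RefSeq, on the strand of the gene, at chr6:122707239-122707488 (*Nanog*, plus strand), chr8:43306981-43307230 (*Zfp42*, minus strand), chr12:86469867-86470116 (*Esrrb*, plus strand) and chr1:136953631-136953880 (*Nr5a2*, minus strand). None of these stretches overlapped an annotated exon of its gene. Capitals mark matches on either strand to the octamer core TTTGCAT, the SOX elements ACAATG and ACAAAG or the KLF element GGGTGTGG.
Nanog: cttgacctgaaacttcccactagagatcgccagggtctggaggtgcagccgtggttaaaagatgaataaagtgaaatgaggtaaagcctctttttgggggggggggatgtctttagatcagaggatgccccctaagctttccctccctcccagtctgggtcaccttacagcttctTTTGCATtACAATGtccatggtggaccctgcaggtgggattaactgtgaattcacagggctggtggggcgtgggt
Zfp42: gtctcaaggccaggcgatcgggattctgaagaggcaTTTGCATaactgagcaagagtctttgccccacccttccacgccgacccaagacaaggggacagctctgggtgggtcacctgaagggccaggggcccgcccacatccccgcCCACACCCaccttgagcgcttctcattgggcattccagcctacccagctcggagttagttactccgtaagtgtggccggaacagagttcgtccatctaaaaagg
Esrrb: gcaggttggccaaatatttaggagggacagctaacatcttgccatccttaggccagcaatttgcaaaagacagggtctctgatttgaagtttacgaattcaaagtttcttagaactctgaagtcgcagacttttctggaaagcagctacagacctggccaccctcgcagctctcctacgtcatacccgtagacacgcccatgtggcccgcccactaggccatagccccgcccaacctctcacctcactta
Nr5a2: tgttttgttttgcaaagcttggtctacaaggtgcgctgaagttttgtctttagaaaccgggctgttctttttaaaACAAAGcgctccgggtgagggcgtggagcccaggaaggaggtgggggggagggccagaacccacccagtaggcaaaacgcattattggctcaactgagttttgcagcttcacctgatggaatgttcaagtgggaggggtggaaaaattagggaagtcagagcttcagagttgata
The *Nanog* stretch held the octamer core at positions -75 to -69 from the start, followed after 1 base by a SOX element at -67 to -62. An octamer core followed after any base by ACAA was found in 7 of 21748 stretches of the same length before the most upstream start of each gene (0.0322%). *Zfp42* held the full octamer ATTTGCAT at -215 to -208, an element that 1.46% of all stretches held, and a KLF element on the other strand at -104 to -97, against 3.38% of all stretches. The core TTTGCAT alone, which overlaps the full octamer, was in 3.81% and a SOX element in 22.7%. The *Esrrb* stretch matched none of these letters. The *Nr5a2* stretch matched 1 SOX element at -175 to -170. The nuclear receptor core AAGGTCA (3.67% of all stretches) was not found in the stretches of the 8 genes on either strand, nor was TCAAGGTCA (0.446%), the STAT element TTCCNGGAA (0.933%), GGTCTCTAA (0.207%) or CCAG repeated after 6 bases (2.69%). *Prdm14* held AAGATGG, an element of ZFP42 and YY1, at -239 to -233 (4.18% of all stretches), *Nr0b1* held the SOX element at -90 to -85, and *Tfcp2l1* and *Nr0b1* held TATAAA at -28 to -23 and -21 to -16, as *Sall4* did on the other strand at -148 to -143 (11.5%). GC content of the 8 stretches ran from 41.2% (*Sall4*) to 65.2% (*Tfcp2l1*), with quartiles of 46.4% and 62.4% over all genes. The ratio of observed to expected CpG was 0.182 for *Nanog*, 0.189 for *Sall4* and between 0.333 and 0.609 for the other 6, with a median of 0.49 over all genes.

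The libraries held between 3477 and 10545 peaks and marked between 4021 and 11138 genes, with the fewest in Oct4+ replicate 3 (4021) and Oct4+ replicate 4 (5521 genes, 4887 peaks). The highest coverage of the median peak was 22 to 59 in Oct4+ libraries, 107 to 144 in DP and 67 to 143 in Pdgfra+, and reads per library were not given with the peaks, so depth is unknown. Coverage was not scaled between libraries, and a gene's peak is therefore described by its percentile, the share of the library's peaks whose value is the same or lower, with 0 for no promoter peak. The sorted populations were compared by cell type markers. The products used for the sort are among them, *Pou5f1* (OCT4) as an epiblast and *Pdgfra* as a primitive endoderm marker. These genes are no independent check of the sort. Of 6 epiblast markers, 5 were marked in each Oct4+ library, 3 to 4 in DP and 0 in Pdgfra+, with summed total-signal percentiles of 471 to 490, 130 to 166 and 0, and *Pecam1* was at 0 in all 10 libraries. Of 12 primitive endoderm markers, 0 to 7 were marked in Oct4+ libraries, 11 to 12 in DP and 11 in Pdgfra+, with summed percentiles of 0 to 185, 1049 to 1071 and 982 to 1073. *Foxa2*, *Sox7*, *Dab2* and *Cubn* were among those at 0 in all Oct4+ libraries. Of 8 trophectoderm markers, *Hand1* and *Elf5* were at 0 throughout and 1 to 2 were marked in Oct4+ libraries, 4 to 5 in DP and 3 to 5 in Pdgfra+ (summed percentiles 46.1 to 124, 134 to 211 and 78.1 to 278). The 3 mesoderm markers were at 0 in all libraries. By total-signal percentile 11 of the 12 primitive endoderm genes were lower in Oct4+ than in DP and than in Pdgfra+ nEnd, where 6.08% and 9.53% of all genes were lower in Oct4+. *Col4a1* and *Col4a2*, both among the 12, had the same percentile and peak width in all 10 libraries, so they are not separate readings. Of 6 trophectoderm genes tested *Tfap2c* was higher in Oct4+ in both, where 1.46% and 3.02% of all genes were higher, and *Krt8* lower. *Tfap2c* was at 0 in all DP and Pdgfra+ libraries and *Krt8*, like *Foxa2*, *Sox7*, *Dab2* and *Cubn*, in all Oct4+ libraries, so each could differ in 1 direction only. The part of these markers in the results below was not tested.

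All 8 promoters were marked in all 4 Oct4+ libraries. In the DP libraries 5, 4 and 3 of the 8 were marked, and in the Pdgfra+ libraries 3, 1 and 1. With the 3477 peaks of highest total signal kept in each library, the counts were 7, 7, 8 and 7 in Oct4+, 2, 2 and 1 in DP and 1, 1 and 1 in Pdgfra+ libraries, and *Nr0b1* had no peak left in Oct4+ replicates 1, 2 and 4. *Prdm14*, *Nr5a2* and *Nr0b1* had a promoter peak in Oct4+ nEnd and in no library of DP or Pdgfra+ nEnd, *Nanog* and *Esrrb* in every Oct4+ and DP library and in no Pdgfra+ library, *Zfp42* and *Tfcp2l1* in all Oct4+ and some of the other libraries, and *Sall4* in all 10. Among the 11632 genes marked in at least 1 library, 34.1% were marked in every Oct4+ library, 31.1% in all 10, 0.352% in every Oct4+ library and no other, and 0.198% in every Oct4+ and DP library and no Pdgfra+ library. *Prdm14*, *Nr5a2* and *Nr0b1* were thus marked in every Oct4+ and no DP library, as 0.378% of all genes were (the reverse held for 3.64%), and these 3, *Nanog* and *Esrrb* in every Oct4+ and no Pdgfra+ library, as 0.671% were (the reverse 2.68%). *Nanog* and *Esrrb* were marked in every DP and no Pdgfra+ library, as 0.206% were (the reverse 0.00860%). These shares are 24 genes and 1 gene. They became 24 and 31 genes without Pdgfra+ replicate 2, and 25 and 20 without DP replicate 2. Fisher's exact test, two-sided, cannot go below p = 0.0286 for 4 libraries against 3 or p = 0.1 for 3 against 3. The exact test gave p = 0.0286 for *Prdm14*, *Nr5a2* and *Nr0b1* in Oct4+ against DP (adjusted p = 0.712), and p = 0.0286 for these 3, *Nanog* and *Esrrb* in Oct4+ against Pdgfra+ (adjusted p = 0.852). For *Nanog* and *Esrrb* in DP against Pdgfra+ the exact test gave p = 0.1 (adjusted p = 1).

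**Figure D1:**
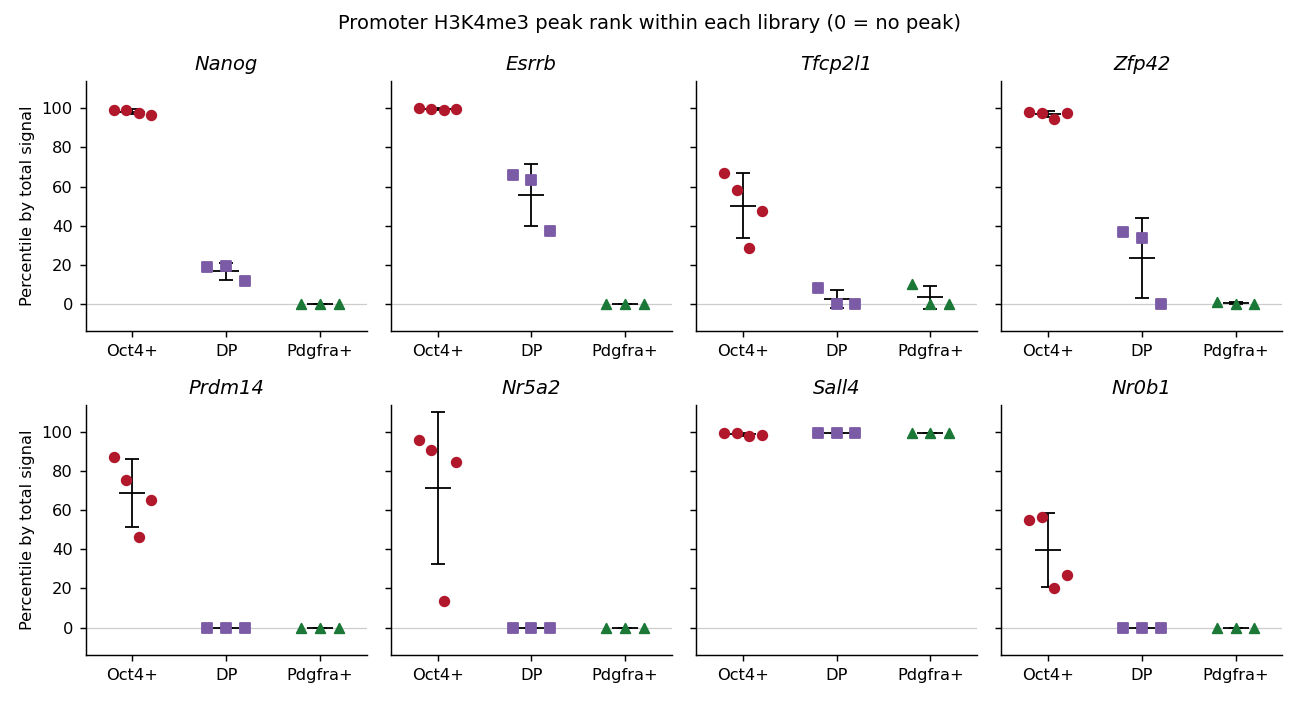
Percentile of the promoter peak by total signal within its library (vertical axis, 0 to 100, 0 where a library has no promoter peak) for the 8 genes in Oct4+ (4 circles), DP (3 squares) and Pdgfra+ (3 triangles) libraries; the bar and whiskers are mean and SD. *Nanog*, *Esrrb* and *Zfp42* sit above 94 in all Oct4+ libraries, and *Sall4* is at 98 or above in all 10.

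*Nanog*, the homeobox factor at the centre of the network (ENSMUSG00000012396.12, chr6:122707489-122714633, plus strand), ranked near the top in Oct4+ nEnd and near the bottom in DP nEnd. Its total-signal percentile was 99.3, 99.3, 97.6 and 96.8 in Oct4+ replicates 1 to 4 and 18.8, 19.6 and 11.5 in DP replicates 1 to 3, and no Pdgfra+ library had a promoter peak. The Oct4+ and DP values did not overlap. The peak was 15214, 13584, 5891 and 7916 bp wide in the Oct4+ libraries and 7905, 6452 and 5432 bp wide in the DP libraries, so widths overlapped between the populations where the percentiles did not. It covered 87.4% ± 16.4 of the gene in Oct4+ (SD, n = 4), 60.9% ± 16.5 in DP (SD, n = 3) and none of it in Pdgfra+. In Oct4+ replicates 1 and 2 the peak began 6386 and 6548 bp upstream of the start, and in replicate 4 a separate peak lay 5670 to 3275 bp upstream (chr6:122701819-122704214), at no annotated promoter of a protein-coding gene. In the Pdgfra+ libraries the nearest peak was 31763 to 33103 bp away.

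*Esrrb*, the estrogen-related orphan receptor of the network (ENSMUSG00000021255.17, chr12:86361117-86521628, plus strand), had the widest peak of the 8 in each Oct4+ library. Its total-signal percentile was 100, 99.9, 99.3 and 99.8 in the Oct4+ libraries and 66.0, 63.3 and 37.4 in the DP libraries, with 0 in all Pdgfra+ libraries. The peak was 44034, 27241, 14176 and 27354 bp wide in Oct4+ and 18505, 15022 and 9070 bp in DP, and it was the widest peak of the whole library in Oct4+ replicates 1 and 2, number 2 in replicate 4 and number 3 in replicate 3. By total signal it was number 1 of 9144 peaks in Oct4+ replicate 1. The 2 populations overlapped in width but not in percentile. The gene has 5 annotated starts, and the marked one lies 109000 bp inside the gene, at 86470117, the start of a protein-coding transcript, and within an intron of the longer transcripts. The starts at 86361117, 86421644 and 86421883 were not overlapped in any library, and the start at 86504409 (a processed transcript) was overlapped in all 4 Oct4+ libraries and in none of the others. From the marked start the peak ran 11618 to 39532 bp downstream in Oct4+ libraries and 6430 to 15006 bp in DP. In Oct4+ replicates 2, 3 and 4 further peaks lay between 18045 and 39742 bp downstream, where the single peak of replicate 1 reached 39532 bp. The gene was covered over 22.3% ± 4.56 of its length in Oct4+ (SD, n = 4) and 8.85% ± 2.97 in DP (SD, n = 3).

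*Nr5a2*, also called LRH-1 (ENSMUSG00000026398.14, chr1:136842571-136960448, minus strand), was marked in Oct4+ nEnd alone. Its total-signal percentile was 96.2, 90.7, 13.7 and 84.8 in Oct4+ replicates 1 to 4, and replicate 3 stood far below the others. Peak width was 9803, 7631, 3580 and 10059 bp. The marked start was at 136953630, that of a protein-coding transcript, 6818 bp inside the gene and in an intron of the transcripts that begin upstream, in all 4 libraries, and the peak also reached the starts at 136949562 and 136949173 in 3 of them. The upstream starts at 136960448 and 136960380 were not overlapped in any library, and in DP and Pdgfra+ libraries the nearest peak was at least 324311 bp away. *Nr0b1*, or DAX1, an atypical receptor without a DNA-binding domain that represses other nuclear receptors (ENSMUSG00000025056.4, chrX:86191764-86195947, plus strand), had the lowest Oct4+ percentiles of the 8 on average. They were 55.1, 56.4, 20.1 and 26.8 by total signal, and all DP and Pdgfra+ libraries were at 0. Its peak of 4769, 4633, 3777 and 3611 bp covered 70.4% to 97.6% of this short gene of 4184 bp. The extent of the peaks from the start is drawn for each library.

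**Figure D2:**
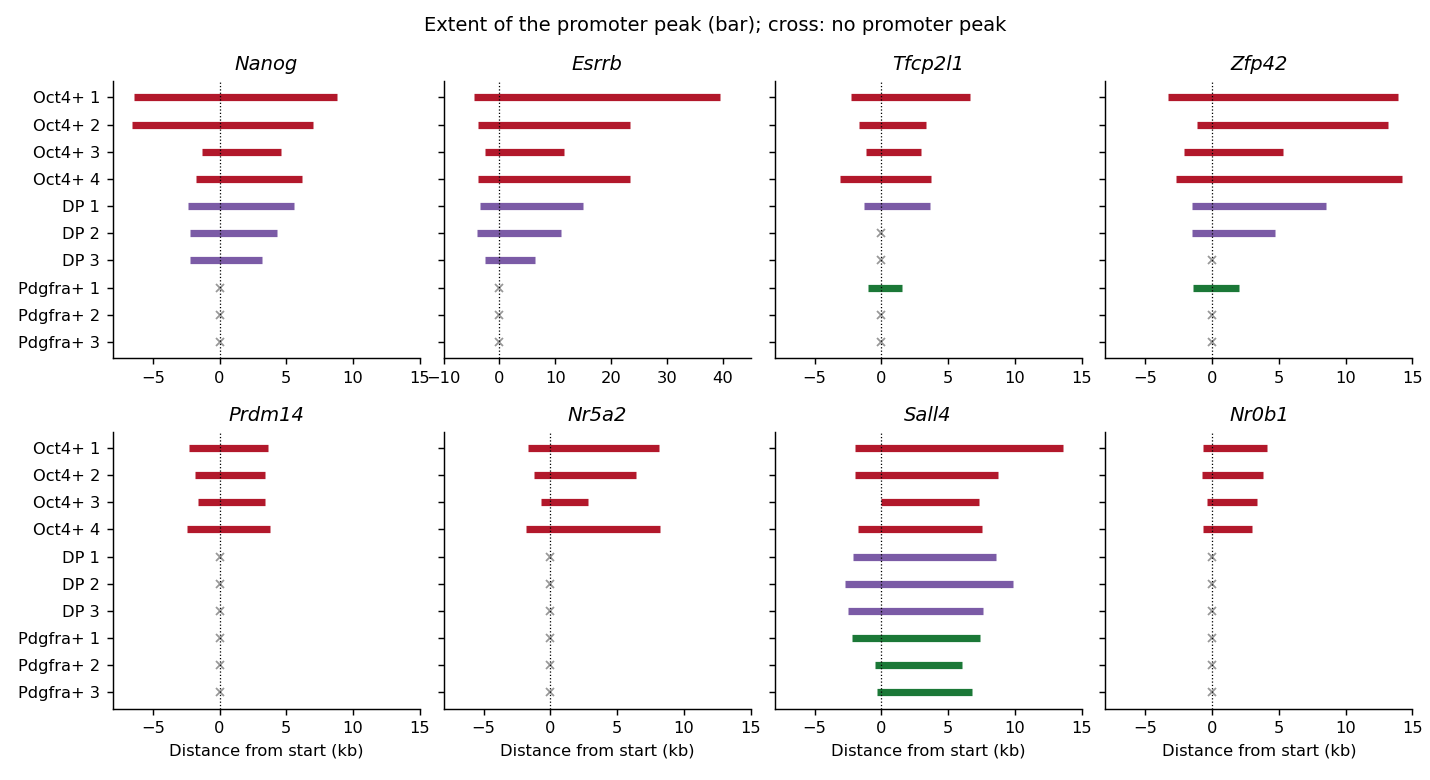
Extent of the promoter peak (bar) along the direction of transcription, in kb from the marked start (dotted line), for each of the 10 libraries (rows); a cross is a library without a promoter peak. The *Esrrb* panel has a wider axis, since its peak reaches 39532 bp downstream in Oct4+ replicate 1, while *Prdm14*, *Nr5a2* and *Nr0b1* have bars in the 4 Oct4+ rows alone.

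*Tfcp2l1*, a CP2 family factor (ENSMUSG00000026380.10, chr1:118627945-118685168, plus strand), was in the middle ranks of Oct4+ nEnd. Its total-signal percentile was 67.2, 58.0, 28.4 and 47.7 in Oct4+ libraries, 7.90, 0 and 0 in DP and 9.92, 0 and 0 in Pdgfra+. Every Oct4+ library was above all others, and DP replicate 1 and Pdgfra+ replicate 1 held low-ranked peaks of 4964 and 2564 bp. Widths in Oct4+ were 8902, 4993, 4125 and 6854 bp. Oct4+ replicate 1 held a further intragenic peak of 10725 bp (chr1:118642154-118652878), 14209 to 24933 bp downstream of the start, and 30.3% of the gene was covered there against 5.24% to 6.54% in the other 3 Oct4+ libraries.

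*Zfp42* (ENSMUSG00000051176.6, chr8:43295063-43306980, minus strand) had total-signal percentiles of 98.0, 97.9, 94.6 and 97.6 in Oct4+ libraries. They were 36.6, 33.9 and 0 in DP and 1.07, 0 and 0 in Pdgfra+, so every Oct4+ library was above all others, while DP and Pdgfra+ overlapped at 0. The peak was 17189, 14278, 7455 and 16923 bp wide in Oct4+, 9967 and 6230 bp in DP replicates 1 and 2 and 3398 bp in Pdgfra+ replicate 1. It covered the whole gene in 3 Oct4+ libraries and 44.7% of it in replicate 3, 71.2% and 39.5% in the 2 marked DP libraries and 16.5% in the marked Pdgfra+ library. *Sall4* (ENSMUSG00000027547.17, chr2:168748332-168767943, minus strand) was the exception among the 8. It was at a total-signal percentile of 99.4, 99.7, 98.0 and 98.6 in Oct4+, 99.5, 99.7 and 99.6 in DP and 99.5, 99.4 and 99.6 in Pdgfra+ libraries, and the 3 populations overlapped. Its peak was 15573, 10686, 7354 and 9243 bp wide in Oct4+, 10734, 12602 and 10100 bp in DP and 9563, 6526 and 7130 bp in Pdgfra+, the last all narrower than the DP peaks. Gene cover was 47.4% ± 15.1 (SD, n = 4), 44.3% ± 5.88 (SD, n = 3) and 34.4% ± 3.36 (SD, n = 3). The internal start at 168755943 was reached in Oct4+ replicate 1 alone.

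*Prdm14* (ENSMUSG00000042414.7, chr1:13113457-13127163, minus strand) had a promoter peak in Oct4+ nEnd alone, with total-signal percentiles of 87.3, 75.7, 46.3 and 65.3. Its width varied little, at 5872, 5203, 5001 and 6230 bp, as did its cover of the gene (25.8% ± 1.37, SD, n = 4). A further peak beyond the 3' end, 21098 to 24506 bp downstream of the start, was present in Oct4+ replicate 1 (chr1:13102657-13106065) and over 2581 bp of the same stretch in replicate 2. The nearest peak to the start was at least 133599 bp away in DP and Pdgfra+ libraries. Ordered by mean total-signal percentile in Oct4+ nEnd, *Esrrb* (99.7 ± 0.33, SD, n = 4), *Sall4* (98.9 ± 0.77), *Nanog* (98.3 ± 1.28) and *Zfp42* (97.0 ± 1.64) stood first, then *Nr5a2* (71.4 ± 38.7), *Prdm14* (68.7 ± 17.4), *Tfcp2l1* (50.3 ± 16.6) and *Nr0b1* (39.6 ± 18.9). The ranges over libraries of neighbours in this order overlapped in all cases.

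In Oct4+ against DP nEnd, 7 of the 8 genes were higher in Oct4+ by total-signal percentile (limma, two-sided, Benjamini-Hochberg adjusted p under 0.05 over 11632 genes), where 1.46% of all genes were. None of the 8 was higher in DP, where 6.08% of all genes were. *Nanog* was 81.6 ± 2.85 percentile points higher (SE, adjusted p = 7.78e-07), *Zfp42* 73.5 ± 7.94 (adjusted p = 0.000625), *Prdm14* 68.7 ± 8.24 (0.00119), *Tfcp2l1* 47.7 ± 8.35 (0.00956) and *Esrrb* 44.2 ± 6.29 (0.00324). *Nr5a2* was 71.4 ± 17.7 points higher (adjusted p = 0.0461) and *Nr0b1* 39.6 ± 8.87 (0.0298). *Prdm14*, *Nr5a2* and *Nr0b1* were at 0 in every DP and Pdgfra+ library and were tested only because of their Oct4+ peaks, so they could differ in no other direction and their calls are given as a description. Every Oct4+ library was above every DP library for these 7 genes and for 4.21% of all genes. *Sall4* differed by -0.66 ± 2.28 points (adjusted p = 0.97). The calls of *Nr5a2* and *Nr0b1* were the least steady. *Nr5a2* kept an adjusted p under 0.05 in 7 of 18 limma fits (range 6.05e-06 to 0.158, 0.0607 without Oct4+ replicate 1 and 0.131 without Oct4+ replicate 4) and *Nr0b1* in 10 of 18 (range 0.00936 to 0.506, 0.11 without DP replicate 1), and *Tfcp2l1* had an adjusted p of 0.0522 without DP replicate 2 (range 0.000978 to 0.195). The exact permutation test over libraries, two-sided and adjusted over all genes, called none of the 8, with an adjusted p of 0.252 for *Nanog*, *Esrrb*, *Zfp42* and *Prdm14* and 0.289 for *Tfcp2l1*, *Nr5a2* and *Nr0b1*. Before adjustment this exact permutation test gave p = 0.0286, the smallest it can give, for the first 4 genes. The median difference was 58.2 points over the 8 genes and -6.83 over all genes tested.

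In Oct4+ against Pdgfra+ nEnd, where 3.02% of all genes were higher in Oct4+ and 9.53% higher in Pdgfra+, the same 7 genes were higher in Oct4+ and none higher in Pdgfra+. The difference was 99.7 ± 6.29 points for *Esrrb* (SE, limma adjusted p = 1.62e-05), 98.3 ± 2.85 for *Nanog* (1.75e-07), 96.6 ± 7.94 for *Zfp42* (9.4e-05) and 47.0 ± 8.35 for *Tfcp2l1* (0.00739). For *Prdm14*, *Nr5a2* and *Nr0b1*, at 0 in Pdgfra+ as in DP, the differences were those given above, with adjusted p = 0.000863, 0.0341 and 0.0216. *Nanog* and *Esrrb* were also at 0 in every Pdgfra+ library, so they too could differ in no other direction here. *Nr5a2* was past the threshold in 8 of 18 limma fits (adjusted p 4.11e-06 to 0.109) and *Nr0b1* in 12 (0.00683 to 0.435). *Sall4* differed by -0.56 ± 2.28 points (adjusted p = 0.881). Every Oct4+ library was above every Pdgfra+ library for the 7 genes and for 4.62% of all genes, and the median difference was 70.0 points over the 8 genes and -7.42 over all. This comparison and the preceding one share the Oct4+ libraries.

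In DP against Pdgfra+ nEnd, 1 of the 8 genes was higher in DP by total-signal percentile, where 0.129% of all genes were (0.0430% were higher in Pdgfra+). *Esrrb* differed by 55.6 ± 6.72 points (SE, limma adjusted p = 0.0222). That call was lost without any of Oct4+ replicates 1 to 4, DP replicates 1 and 2 or Pdgfra+ replicates 2 and 3 in turn (limma adjusted p 0.0524 to 0.0994, and 0.000232 to 1 over all fits). *Nanog* differed by 16.7 ± 3.05 points (adjusted p = 0.157) and *Zfp42* by 23.1 ± 8.49 (adjusted p = 1), which became 34.9 points (adjusted p = 0.0124) without DP replicate 3 (range 0.0124 to 1). For *Nanog* and *Esrrb* every DP library was above every Pdgfra+ library, as for 2.68% of all genes. Both genes were at 0 in every Pdgfra+ library and could differ in no other direction. *Tfcp2l1* differed by -0.67 ± 8.93 points and *Sall4* by 0.09 ± 2.44 (adjusted p = 1 for both). The other 3 genes were at 0 in both populations.

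**Figure D3:**
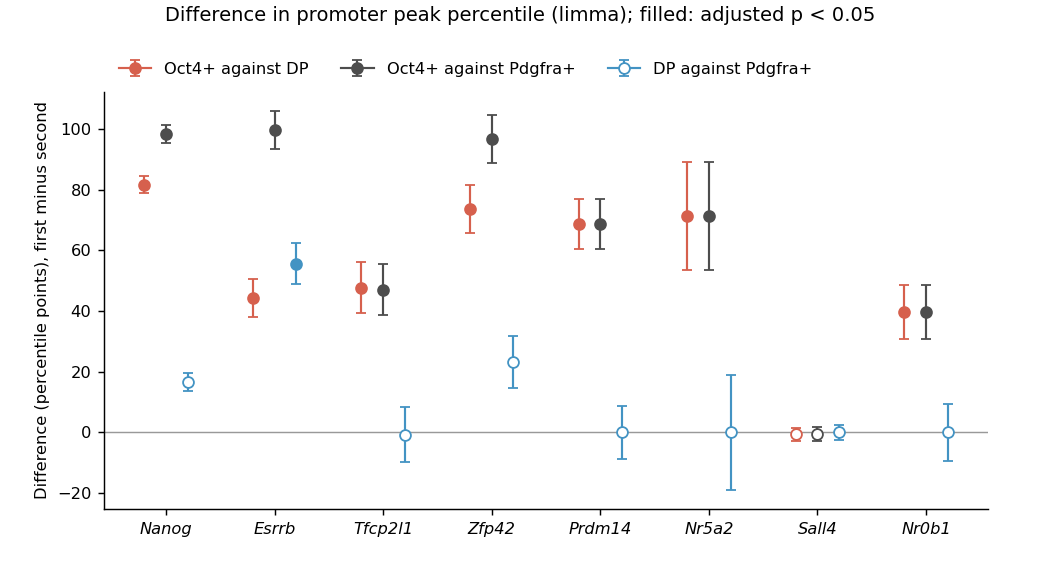
Difference in total-signal percentile of the promoter peak (vertical axis, percentile points, first population minus second) for the 8 genes in the 3 comparisons; points are limma estimates, whiskers are SE, and filled points have an adjusted p under 0.05. The 7 genes other than *Sall4* lie between 39.6 and 99.7 in both comparisons of Oct4+ nEnd, and *Esrrb* alone is filled in DP against Pdgfra+.

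The DP peaks of *Nanog*, *Esrrb* and *Zfp42* were wide and low. By the highest coverage in the peak, *Nanog* was at percentile 0.246, 0.521 and 0.304 in the DP libraries, *Esrrb* at 0.837, 3.20 and 1.11 and *Zfp42* at 1.48 and 2.48 in the 2 marked ones. By width the same peaks were at percentile 95.5, 86.4 and 87.0 (*Nanog*), 99.9, 99.6 and 98.5 (*Esrrb*) and 98.4 and 84.5 (*Zfp42*). In Oct4+ libraries the highest-coverage percentile of *Nanog* was 97.2, 97.5, 89.1 and 90.0 and that of *Esrrb* 96.3, 98.0, 78.7 and 90.8. *Zfp42* was lower on this scale than by total signal in Oct4+ too (60.1, 51.3, 68.6 and 76.7). Coverage per base of the peak placed *Esrrb* behind other members although its total signal was the highest of the 8 in each Oct4+ library. Its mean coverage was 15.3, 14.3, 7.73 and 12.5, which made it number 6, 6, 4 and 3 of the 8, and *Sall4* or *Nanog* or, in replicate 1, *Prdm14* was highest per base. Ranked by highest coverage, 3 of the 8 genes passed in Oct4+ against DP (1.06% of all genes), *Nanog* by 93.1 ± 3.54 points (limma adjusted p = 2.89e-06), *Esrrb* by 89.2 ± 4.89 (1.75e-05) and *Zfp42* by 62.8 ± 5.73 (0.000398). The same 3 passed against Pdgfra+ (1.62% of all genes) and none in DP against Pdgfra+, where limma called 0 genes (0% higher in DP) and 215 genes and none of the 8 had an unadjusted p under 0.05, and *Esrrb* differed by 1.72 ± 5.23 points. With the same number of peaks kept in each library, the 3477 with the highest total signal, *Nanog* and *Zfp42* had no DP peak left and *Esrrb* had 1 in DP replicates 1 and 2, at percentiles 20.5 and 6.82. In Oct4+ nEnd *Nr0b1* kept its peak in replicate 3 alone (percentile 20.1) and *Tfcp2l1* stood at 13.6, 2.21, 28.4 and 26.5. The difference in total-signal percentile between Oct4+ and DP was then 5.03 ± 4.87 points for *Nr0b1* (SE, limma adjusted p = 0.506) and 17.7 ± 5.81 for *Tfcp2l1* (0.051), and that of *Esrrb* between DP and Pdgfra+ was 9.11 ± 4.52 (0.486).

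**Figure D4:**
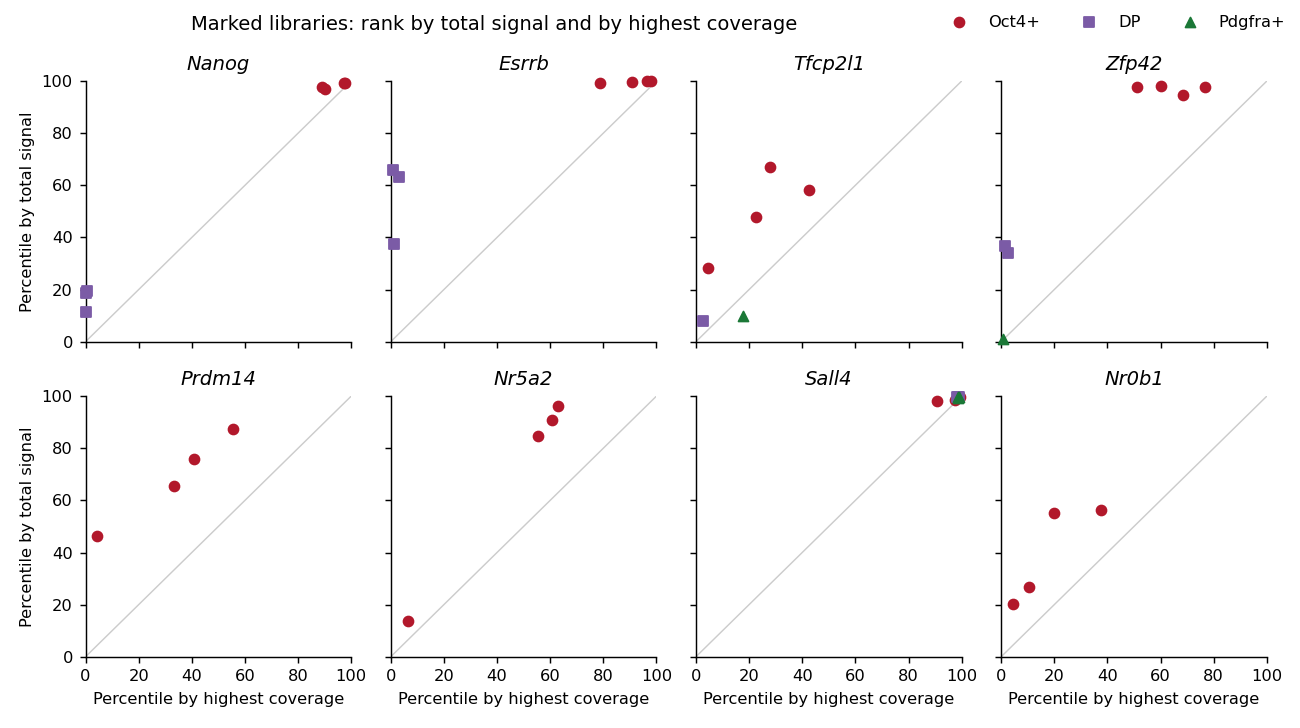
Percentile by total signal (vertical axis) against percentile by highest coverage (horizontal axis) of the promoter peak in the libraries that have one; circles are Oct4+, squares DP and triangles Pdgfra+ libraries, and the line marks equal percentiles. The DP squares of *Nanog*, *Esrrb* and *Zfp42* lie at the left edge, at or below 3.20 by highest coverage.

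Peak width was compared as log2(width in bp + 500), with width 0 where there was no peak, so a gene present in 1 population alone differs by construction. In Oct4+ against DP, *Prdm14* (3.60 ± 0.24 higher on this log2 scale, SE, limma adjusted p = 8.09e-05), *Nr5a2* (3.95 ± 0.37, 0.000118) and *Nr0b1* (3.22 ± 0.25, 8.71e-05) passed, with 0.370% of all genes wider in Oct4+ and 3.68% wider in DP. *Nanog*, marked in all libraries of both populations, differed by 0.57 ± 0.37 (adjusted p = 0.463) and *Esrrb* by 0.92 ± 0.41 (adjusted p = 0.37). Against Pdgfra+, *Esrrb* (5.74 ± 0.41, 8.43e-05), *Nanog* (4.38 ± 0.37, 0.000104) and the 3 genes above passed, with 1.02% of all genes wider in Oct4+ and 2.40% wider in Pdgfra+. In DP against Pdgfra+, *Esrrb* (4.82 ± 0.44, 0.000983) and *Nanog* (3.81 ± 0.39, 0.00207) passed, with 0.206% of all genes wider in DP and 0.00860% wider in Pdgfra+. Over all genes these were 24 and 1, and without Pdgfra+ replicate 2 they were 24 and 23. With equal numbers of peaks both calls in DP against Pdgfra+ were lost (*Nanog* at 0 in both populations, *Esrrb* 3.40 ± 1.21, limma adjusted p = 0.385). In Oct4+ against DP *Nr0b1* was then at 0.77 ± 0.71 (0.582), and *Nanog* (4.38 ± 0.32, 5.07e-06), *Zfp42* (4.79 ± 0.29, 1.98e-06) and *Tfcp2l1* (3.69 ± 0.26, 3.94e-06), with no DP peak left, passed. Of the 6344 genes tested with equal numbers of peaks, 294 were wider in Oct4+ and 544 wider in DP. *Sall4* was 0.51 ± 0.34 wider in DP than in Pdgfra+ (adjusted p = 0.85), although each DP peak was wider than each Pdgfra+ peak.

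In the consensus lists that the authors made for each population, all 8 promoters were marked in Oct4+ nEnd, *Nanog*, *Esrrb*, *Zfp42* and *Sall4* in DP nEnd and *Sall4* in Pdgfra+ nEnd. The consensus peak of *Nanog* was 15376 bp wide in Oct4+ and 7905 bp in DP, that of *Esrrb* 44244 and 19090 bp, that of *Zfp42* 17476 and 10012 bp and that of *Sall4* 15612, 12602 and 9563 bp. The low-ranked peaks of *Tfcp2l1* in DP replicate 1 and of *Tfcp2l1* and *Zfp42* in Pdgfra+ replicate 1 were not in the consensus. All 12 gene and library pairs marked in DP, of 24, and all 5 in Pdgfra+, of 24, came from *Nanog*, *Esrrb*, *Zfp42*, *Tfcp2l1* and *Sall4*.

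Among 20 other genes of the pluripotency network, 19 had a promoter peak in some library and *Dppa3* in none. By total-signal percentile, 8 were higher in Oct4+ than in DP nEnd and 0 lower (*Fgf4*, *Jam2*, *Klf2*, *Pou5f1*, *Sox2*, *Tdgf1* and *Utf1* among them), and 10 were higher in Oct4+ than in Pdgfra+ and 0 lower (the same 7 named genes, *Mybl2* and *Tet2* among them). Over all genes 1.46% and 3.02% were higher in Oct4+ in these comparisons and 6.08% and 9.53% lower. *Fgf4*, at 0 outside Oct4+ libraries, was likewise tested only because of its Oct4+ peaks. *Jam2*, *Pou5f1*, *Sox2*, *Tdgf1* and *Utf1* were also at 0 in all Pdgfra+ libraries and could differ from them in 1 direction only. *Pou5f1* was higher in DP than in Pdgfra+, as 0.129% of all genes were (0.0430% were lower). It encodes OCT4, by which these populations were sorted, so this is no independent result. *Fgf4*, the ligand that the epiblast gives to the primitive endoderm, was at 83.2 to 94.7 in Oct4+ libraries and 0 in the others, as *Prdm14* was. *Jam2*, a junction molecule, was at 11.8 to 28.6 in DP and 0 in Pdgfra+, near the values of *Nanog*. *Klf4*, a Krüppel-like factor, was at 95.0 to 97.9, 99.4 to 99.7 and 98.7 to 99.6 in Oct4+, DP and Pdgfra+, as *Sall4* was near the top in all. *Stat3*, the transducer of LIF signals, was at 6.59 to 54.9 in Oct4+ and 56.6 to 61.4 in DP, a difference of -22.0 ± 11.7 points (SE, limma adjusted p = 0.299). The median difference over the list was 31.3 points in Oct4+ against DP and 57.2 in Oct4+ against Pdgfra+. Of 12 formative and primed pluripotency genes, 11 were tested, and 1 passed in the 3 comparisons, *Foxd3*, higher in Oct4+ than in Pdgfra+ (44.2 ± 11.9 points, limma adjusted p = 0.0453). *Foxd3* was at 0 in all DP and Pdgfra+ libraries and could differ in no other direction.

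**Figure D5:**
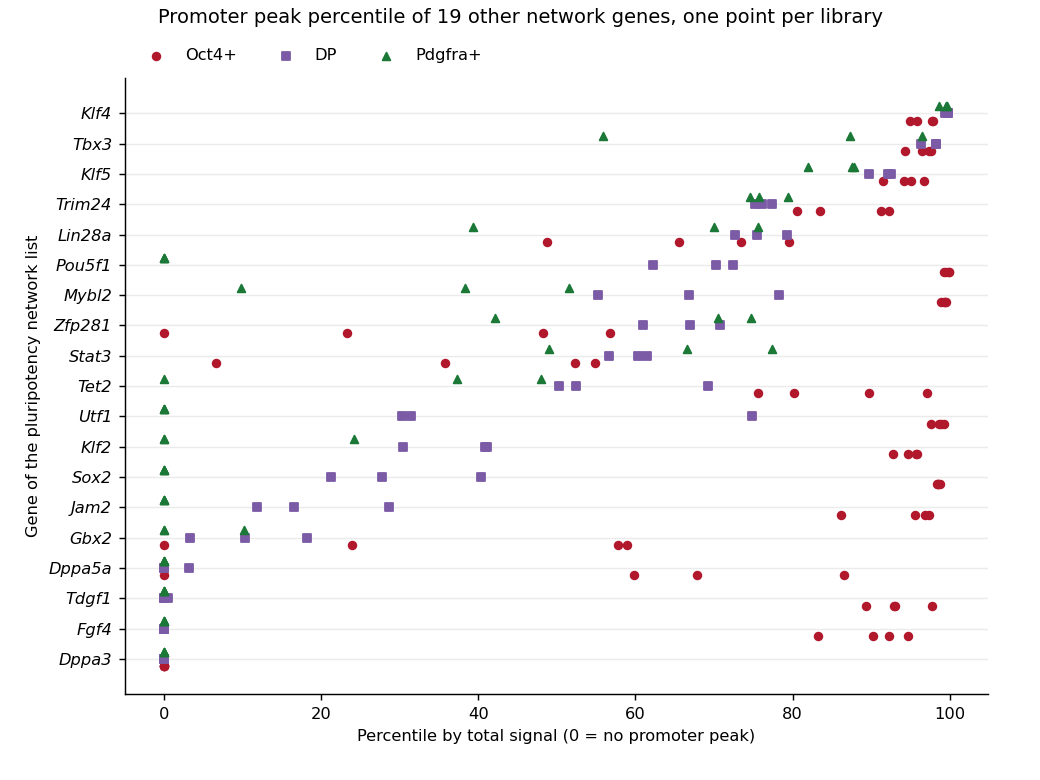
Percentile by total signal (horizontal axis, 0 where there is no promoter peak) of 19 other pluripotency network genes (rows, ordered by their DP mean), with a point for each Oct4+ (circle), DP (square) and Pdgfra+ (triangle) library. *Fgf4* and *Tdgf1* have Oct4+ points above 83 and DP points at 0 or just above, and *Klf4* lies above 94 in all libraries.

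Of 14 relatives of the 8 genes by sequence family, 10 were tested. With limma 0 passed in Oct4+ against DP (3 at an unadjusted p under 0.05) and 0 in DP against Pdgfra+ (0 at an unadjusted p), and 2 passed in Oct4+ against Pdgfra+ in opposite directions, where 3.02% of all genes were higher and 9.53% lower in Oct4+. Those were *Sall3* (57.8 and 4.62 as means, adjusted p = 0.0285) and *Tfcp2* (16.0 and 54.3, adjusted p = 0.0459, limma). *Sall1* was at 95.8 to 99.4 in all 10 libraries, like *Sall4*. *Esrra*, the widely used relative of *Esrrb*, was marked in 3 of 4 Oct4+ libraries and all DP and Pdgfra+ libraries, and *Esrrg*, *Nr5a1* and *Nr0b2* in none. *Yy1*, the ancestral relative of *Zfp42*, was at 94.1 to 97.9 in all 10 libraries and *Yy2* at 0.

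The genes closest to each member were found by the root mean square difference in total-signal percentile over the 10 libraries. For *Nanog* they were *Gdf3* (4.39 points), *Notum* (4.67) and *Jam2* (4.78), and *Gdf3* lies on chromosome 6 as *Nanog* does. For *Esrrb* they were *B3gnt7* (6.93), *Klf12* (9.08) and *Utf1* (10.7). For *Zfp42* they were *Bcat1* (5.88), *Jam2* (8.04) and *Nanog* (8.17), the only case where a member was among the 3 closest to another. *Tfcp2l1* was closest to *Frrs1* (4.48), *Gcnt2* (5.61) and *Zfp990* (5.83), and *Prdm14* to *H2-M5* (2.46), *Cpsf4l* (2.94) and *Tcea3* (3.49). *Nr5a2* was closest to *Dusp27* (5.68), *AC124108.1* (7.18) and *Gpa33* (8.53), all on chromosome 1 as it is. *Dusp27* and *Gpa33* had the same highest Oct4+ percentile (97.6), and peaks that such genes share with each other were not excluded. Likeness by chromosome was not tested. *Sall4* was closest to *Rara*, a retinoic acid receptor (0.27), *Setd5* (0.35) and *Anp32a* (0.41), and *Nr0b1* to *Fbxo27* (6.03) and *Icam1* (6.06). Between members, the difference from *Nanog* was 8.17 points for *Zfp42*, 22.0 for *Esrrb*, 22.8 for *Prdm14*, 28.5 for *Nr5a2*, 32.7 for *Tfcp2l1*, 39.5 for *Nr0b1* and 71.0 for *Sall4*.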

How the data were processed

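H3K4me3 CUT&Tag peaks of 10 libraries were used, grouped by the sorted population in the labels (Oct4+ 4, DP 3, Pdgfra+ 3). Per the labels, the authors demultiplexed with bcl2fastq 2.19.1, aligned with Bowtie2 to mm10 and used SAMtools 1.12, bedtools 2.26.0, deepTools and SEACR. The authors called peaks in each library against IgG with SEACR's stringent setting and deposited, for each peak, its total signal (coverage summed over the peak) and its highest coverage, both unscaled signal, and a consensus list per population made with DiffBind, of which positions were used. Aligner and SEACR versions are not given in the sources used here. The study's methods call its replicates biological unless otherwise stated, but the labels do not say whether these libraries came from separate cultures. The p-values therefore rest on the spread between these libraries. In limma this spread is pooled over the populations, including any without a peak, and drawn towards that of all genes tested. No counting interval was computed, since depth is unknown.

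Peaks were overlapped by at least 1 bp with the region from 1000 bp upstream to 100 bp downstream of 93196 start sites (GENCODE M21). Where several peaks qualified, that with the highest total signal was used. Percentiles and log2(width + 500) of the 11632 genes marked in at least 1 library (8 of 8 members) were fitted with limma 3.58.1 (R 4.3.3) over all 10 libraries and tested two-sided, with Benjamini-Hochberg adjustment over all genes and a threshold of 0.05. Presence was tested with Fisher's exact test (scipy 1.17.1, Python 3.11.15). The overlap search and the limma step were tested on simulated data.

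The members and gene lists (20 network, 12 formative and primed, 12 primitive endoderm, 8 trophectoderm, 3 mesoderm and 14 family genes) were chosen with earlier results of these data known. All 76 symbols matched the annotation, and a few genes of the lists and of the likeness search are not reported here. Named genes were the 8 members, list genes that passed a test or are textbook partners, and for each member marked in at least 3 libraries the 3 genes with the closest percentiles that share no peak with it. Sequences came from the RefSeq GRCm38.p6 genome. The alternatives were a window of 2500 bp on each side, starts of protein-coding transcripts, peaks that cover at least 50% of a window, equal numbers of peaks, genes marked in at least 3 libraries, a replicate block, ranking by highest coverage, an exact permutation test, a width pseudocount of 100 bp and leaving out each library.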

Additional observations from a re-analysis of the deposited data

Results flagged for a closer look

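In the group of 4 Oct4+ libraries, 5 of 32 sets of values (8 genes, 4 measures) held a library whose gap to the nearest other was above Dixon's 95% limit for 4 values, where chance flags about 1 group in 20 (5%). For *Nr5a2*, Oct4+ replicate 3 was lowest by total signal (percentile 13.7, next 84.8) and by highest coverage (6.59, next 55.5). For *Zfp42*, replicate 3 was lowest by total signal (94.6, next 97.6) and in the share of the gene covered (44.7%, with the whole gene covered in the other 3). Replicate 3 had 3477 peaks, the fewest of the 10 libraries, and the part of this in these values was not tested. Without it, 7 of the 8 genes were called in Oct4+ against DP and 7 in Oct4+ against Pdgfra+. For *Tfcp2l1*, Oct4+ replicate 1 was highest in the share of the gene covered (30.3%, next 6.54%), and its additional intragenic peak of 10725 bp was present in that library alone.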

How the results depend on the processing

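By percentile, calls of *Nanog*, *Esrrb* and *Zfp42* in both comparisons of Oct4+ nEnd held in all 18 limma fits. By width in Oct4+ against DP these genes passed in 1, 0 and 1 of 18. With equal numbers of peaks, the calls over all genes by percentile were 1850 (771 higher in Oct4+, against 170 of 877), 2480 (1117, against 351 of 1459) and 178 (86, against 15 of 20) in Oct4+ against DP, Oct4+ against Pdgfra+ and DP against Pdgfra+. By width they were 838 (294, against 43 of 471), 1028 (499, against 119 of 398) and 97 (62, against 24 of 25), and by presence 740 (291, against 44 of 467), 879 (389, against 78 of 390) and 111 (72, against 24 of 25). With equal numbers of peaks 6344 genes were tested, against 11632 in the main setting, so these counts are not shares of the same total. Among the 8 genes this setting gave 5 by width and 5 by presence in Oct4+ against DP. Over all genes 294 of 6344 by width and 291 of 6344 by presence were higher in Oct4+ there. In DP against Pdgfra+ it gave 0 of the 8 by percentile, width and presence (0 at an unadjusted p under 0.05 by percentile).

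Ranked by highest coverage, 3, 3 and 0 of the 8 genes and 517, 834 and 0 of all genes passed, and *Sall4* in DP against Pdgfra+ turned to -0.128 points. The exact permutation test, adjusted over all genes, called 0 of the 8 and 0 of all genes in each comparison. At an unadjusted p under 0.05 it held 4, 4 and 0 of the 8 and 1320, 1387 and 0 of all genes, and its smallest p is 0.0286 for 4 libraries against 3 and 0.1 for 3 against 3. Same-numbered libraries had correlations of -0.20 to 0.21 over 9 pairs, and those with different numbers -0.38 to 0.35 over 24 pairs. Of 9 libraries, 3 correlated best with their own number. So few libraries cannot decide whether they were paired. With the replicate block, 5, 6 and 0 of the 8 genes and 509, 902 and 3 of all genes passed by percentile, and 311 of all genes by width in Oct4+ against DP.

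Leaving out 1 library gave 4 to 7 of the 8 genes by percentile in Oct4+ against DP (4 without DP replicate 2), 5 to 7 against Pdgfra+ and 0 to 2 in DP against Pdgfra+ (2 without DP replicate 3), and 453 (without DP replicate 2) to 1488 (without Oct4+ replicate 1), 948 (without Oct4+ replicate 4) to 2157 (without Oct4+ replicate 1) and 8 (without DP replicate 2) to 67 (without Pdgfra+ replicate 1) of all genes. The count over all genes was 24 to 119 by width and 25 to 250 by presence in DP against Pdgfra+ (highest without Pdgfra+ replicate 1), 467 to 803 by presence in Oct4+ against DP (highest without Oct4+ replicate 1) and 390 to 702 in Oct4+ against Pdgfra+ (highest without Pdgfra+ replicate 2). *Tfcp2l1* in DP against Pdgfra+ ranged from -3.31 to 2.63 points, turning to 0.643 without DP replicate 2 or 3 and 2.63 without Pdgfra+ replicate 1. Its width difference ranged from -0.87 (without DP replicate 1) to 1.15, and was -0.16 without Pdgfra+ replicate 2 or 3. The width difference of *Sall4* in Oct4+ against DP ranged from -0.289 to 0.0557 (without Oct4+ replicate 3). The cause of these changes was not tested. Depth is unknown, so absence of a peak means that none was called.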
